A study of Homo sapiens with 12 samples.

Results

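Mitosis genes of the kinesin, centromere protein and mitotic kinase families were followed in 2 human hepatoma cell lines in which the ubiquitin-like protein gene UBL5 was silenced. The members were chosen by symbol, with earlier results of these data known. They are every gene named KIF with a number or CENP with a letter, plus 22 genes of the outer kinetochore, the spindle checkpoint, the mitotic kinases and cyclins and the spindle. Pseudogenes and symbols with a hyphen were left out, which removed 6 of 84 symbols and left 78 of the 20293 genes listed for either line. Of these 78, 76 were listed for HepG2 and 76 for Huh7, and 74 for both. KIF17 and KIF26B were listed for HepG2 only, and KIF1A and KIF6 for Huh7 only.

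HepG2 and Huh7 are liver cancer lines that still make albumin and other hepatocyte proteins. In each line, 3 libraries came from cells transfected with UBL5 siRNA (genotype label "UBL5 knockdown") and 3 from cells that received a non-target Ctrl-siRNA (genotype label "WT"), both with lipofectamine RNAiMAX and both labelled 52 h, where the study's text gives a shorter time. All groups were therefore transfected, and a single UBL5 siRNA is named in the study's reagents. The sources do not say that the 3 libraries of a group are separate cultures, so the p-values below measure the spread between these libraries, which may be technical. Levels are given as CPM, the counts of a gene per M (mega) counts of its library, scaled by TMM (the trimmed mean normalization of edgeR). A gene is called higher or lower where its adjusted p in edgeR's quasi-likelihood test (Benjamini-Hochberg over all genes tested in that line) was under 0.05. The libraries were fitted without pairs, and a fit with the replicate number as a block is given as an alternative. Genes with too few counts to test were left out first, which removed KIF26B in HepG2, so 75 members were tested in HepG2 and 76 in Huh7.

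Kinesins are motor proteins that walk along microtubules. One set moves vesicles, organelles and ciliary cargo in any cell, and another builds the spindle, aligns chromosomes and cleaves the cell in mitosis. The kinetochore is the protein plate on the centromere that the microtubules grip. Its inner layer is built from CENP proteins around the centromeric histone CENP-A, and its outer layer holds the NDC80 complex, which binds the microtubule. CDK1 with cyclin B, the Aurora kinases and the Polo kinase PLK1 drive entry into and passage through mitosis, and the checkpoint kinases BUB1 and TTK delay anaphase until every kinetochore is attached. Most of these genes are transcribed in G2 and M phase, so their RNA is low in cells that do not divide.

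UBL5 (ENSG00000198258, chr19:9827892-9830115, plus strand) was low in every UBL5-siRNA library. In HepG2 it had 6.88, 4.31 and 2.8 CPM with UBL5 siRNA, against 60.4, 55.5 and 58.7 CPM with Ctrl-siRNA. In Huh7 the levels were 6.45, 6.67 and 5.8 CPM with UBL5 siRNA and 68.1, 70.8 and 67.1 CPM with Ctrl-siRNA. The groups did not overlap in either line (two-sided p = 0.1 by an exact permutation test, which 3 libraries against 3 cannot go below), and the log2 fold change was −3.63 (SE 0.262, adjusted p = 8.36e-05) in HepG2 and −3.44 (SE 0.0747, adjusted p = 2.86e-10) in Huh7.

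Library totals were 20 to 24.2 M counts with UBL5 siRNA and 23.7 to 29.7 M with Ctrl-siRNA in HepG2, and 20.7 to 22.1 M and 19.5 to 27.2 M in Huh7. The members took 0.389 to 0.468% of all counts with UBL5 siRNA and 0.555 to 0.648% with Ctrl-siRNA in HepG2. In Huh7 they took 0.706 to 0.738% with UBL5 siRNA and 0.755 to 0.81% with Ctrl-siRNA, so the groups did not overlap in either line. The share of mitochondrial counts was 2.75 to 3.61% with UBL5 siRNA and 1.91 to 2.35% with Ctrl-siRNA in HepG2, and 2.66 to 3.72% and 2.46 to 3.3% in Huh7. Its part in the results was not tested. All 10 hepatocyte markers (ALB, AFP, APOB, HNF4A and others) were listed in both lines, with a summed level of 52630 to 62260 CPM with UBL5 siRNA and 55650 to 60680 CPM with Ctrl-siRNA in HepG2, and of 30660 to 31090 and 29210 to 30650 CPM in Huh7. Of 6 leukocyte markers, 3 were listed in HepG2 and 2 in Huh7, PTPRC, CD3E and ITGAM in neither, and nearly all of their sum was LYZ (980 to 1255 CPM with UBL5 siRNA and 1635 to 2190 CPM with Ctrl-siRNA in HepG2, 334 to 350.1 and 562 to 577 CPM in Huh7). The fibroblast markers summed to 10.3 to 26.1 CPM with UBL5 siRNA and 7.81 to 13.96 CPM with Ctrl-siRNA in HepG2 and to 18.0 to 30.9 and 31.6 to 35.3 CPM in Huh7, and the endothelial markers stayed under 9 CPM in every library. COL1A1 had 4.25 to 9.15 CPM with UBL5 siRNA and 1.67 to 1.895 CPM with Ctrl-siRNA in HepG2, and 4.93 to 7.705 and 2.36 to 3.06 CPM in Huh7. COL1A2 had 0 to 4.51 and 0 to 0.0383 CPM in HepG2, and 0.199 to 4.83 and 0.2005 to 0.959 CPM in Huh7. For COL3A1 the ranges were 0.104 to 4.1 and 0 to 0.115 CPM in HepG2, and 0.0498 to 4.36 and 0.0501 to 0.391 CPM in Huh7. The groups thus overlapped for COL1A2 and COL3A1 in both lines. PDGFRB overlapped in HepG2 (5.91 to 6.57 and 5.86 to 12.04 CPM) and lay higher in Huh7 (3.435 to 3.734 and 1.738 to 2.345 CPM). LUM lay lower in Huh7 (8.91 to 10.3 and 26.3 to 28.4 CPM). The source of these transcripts was not tested. HepG2 Ctrl-siRNA replicate 3 stood apart, with 1773 listed genes at 0 where the other HepG2 libraries had 159 to 233. Its column and that of HepG2 UBL5-siRNA replicate 3 lack the suffix that every other column name carries, and both were assigned by sample title. Replicates varied more in HepG2, with a common biological coefficient of variation of 0.189, against 0.0663 in Huh7, and a smaller change was therefore enough for a call in Huh7.

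In HepG2, nearly all members that changed were lower. UBL5 siRNA lowered 39 of the 75 members tested (52.0%), beside 20.1% of all genes tested, and raised 1 (1.33%), beside 16.5% of all genes, so that 40 members (53.3%) were called, beside 36.7% of all genes. The median log2 fold change was −0.41 over the members and 0.01 over all genes tested. At a fold of at least 2, 13 members were lower (17.3%, beside 6.37% of all genes) and 1 was higher (1.33%, beside 4.13%). The 3 UBL5-siRNA libraries all lay below the 3 Ctrl-siRNA libraries for 42 members (56.0%, beside 26.9% of all genes) and above them for 5 (6.67%, beside 26.1%). Fewer dividing cells and less RNA of these genes in each cell cannot be told apart in bulk RNA. Of the 40 calls, 24 held without any single library, all of them lower, and the count of lower members was 26 without Ctrl-siRNA replicate 1 or without UBL5-siRNA replicate 2 and 27 without UBL5-siRNA replicate 3. The 16 calls lost without at least 1 library were those of BUB3, CCNA2, CDC20, CDCA8, CDK1, CENPH, CENPP, CENPT, CENPU, KIF1C, KIF5A, KIF5C, KIF12, KIF24, NUF2 and SPC25. With the replicate number as a block, PLK1 and TTK were also called higher and CENPB and KIF20B lower, and the call of KIF5C was lost. Without Ctrl-siRNA replicate 3, the library that stood apart, 40 members were lower and 1 higher, and without both replicates 3 the counts were 36 and 3. Both of these lower counts include KIF26B, which was not among the 75 members tested with all libraries.

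In Huh7, members moved both ways and about as often as other genes did. UBL5 siRNA lowered 29 of the 76 members tested (38.2%), beside 36.4% of all genes tested, and raised 26 (34.2%), beside 34.9%, which made 55 called (72.4%), beside 71.3% of all genes. The median log2 fold change was −0.05 over the members and −0.01 over all genes. At a fold of at least 2, 10 were lower (13.2%, beside 14% of all genes) and 1 was higher (1.32%, beside 8.62%). The groups did not overlap with UBL5 siRNA lower for 31 members (40.8%, beside 38%) and with UBL5 siRNA higher for 26 (34.2%, beside 35.9%). Of the 55 calls, 52 held without any single library, the others being CENPU, CENPW and CENPX. In 1 fit over all 12 libraries, whose shared spread is wider, 17 members were called higher in place of 26, and 23 lower in place of 29. The higher calls lost were those of CENPB, CENPO, CENPT, CENPU, INCENP, KIF1C, KIF2C, KIF20A and MAD2L1, and the lower calls lost those of AURKB, CENPA, CENPW, CENPX and KIF15, while KIF6 was not in that fit.

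**Figure D1:**
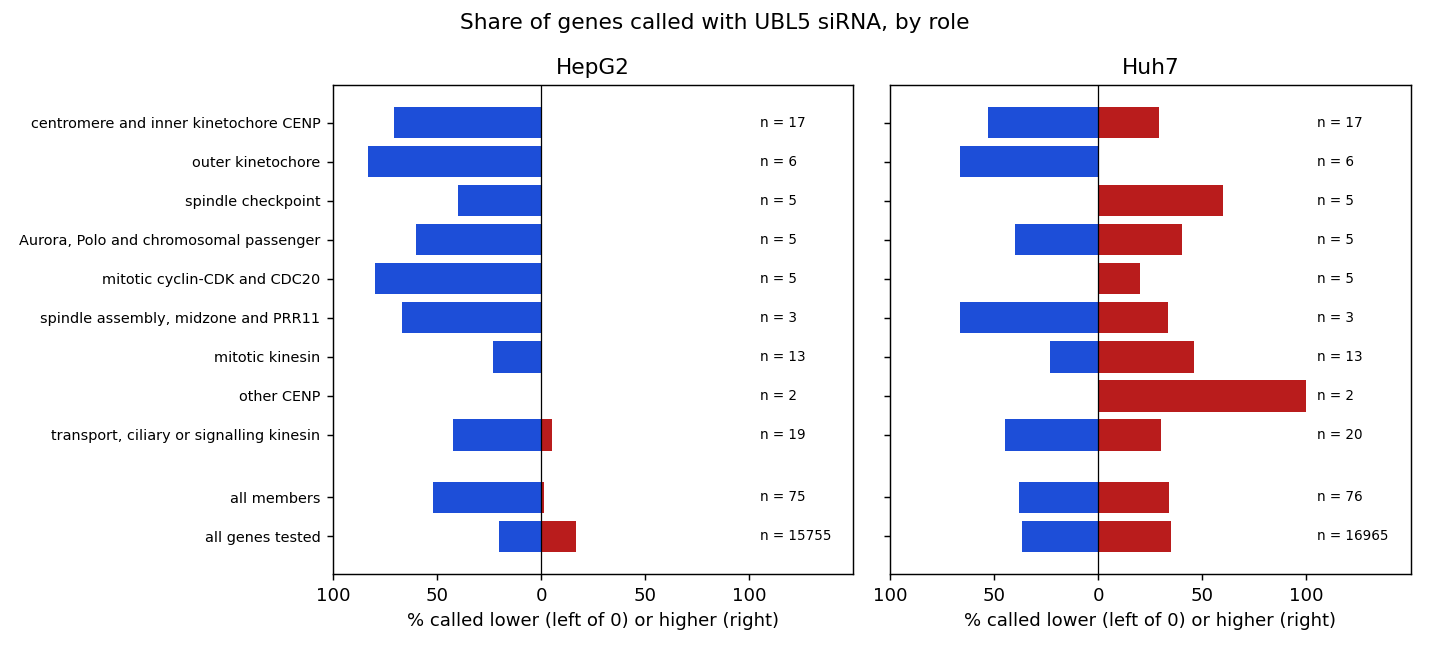
Share of genes called with UBL5 siRNA, by role. Bars give the percentage of genes tested (n beside each bar) that were called lower, left of 0, or higher, right of 0, in HepG2 (left panel) and Huh7 (right panel). In HepG2 39 of 75 members were lower and 1 higher, beside 20.1% and 16.5% of all genes, and in Huh7 29 of 76 were lower and 26 higher, beside 36.4% and 34.9%.

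Over the 74 members tested in both lines, 24 were lower in both (32.4%, beside 16.4% of the 14518 genes tested in both) and 1 was higher in both (1.35%, beside 14.5%). A further 10 were lower in HepG2 and not called in Huh7 (13.5%, beside 3.13%), and 20 were higher in Huh7 and not called in HepG2 (27%, beside 21.2%). The calls were opposite, lower in HepG2 and higher in Huh7, for 5 members (6.76%, beside 1.46%), and no member had the other opposite pair (0.813% of all genes). No member was higher in HepG2 and not called in Huh7 (beside 1.89% of all genes). Another 4 were lower in Huh7 and not called in HepG2 (5.41%, beside 17.3%), and 10 were called in neither line (13.5%, beside 23.3%).

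**Figure D2:**
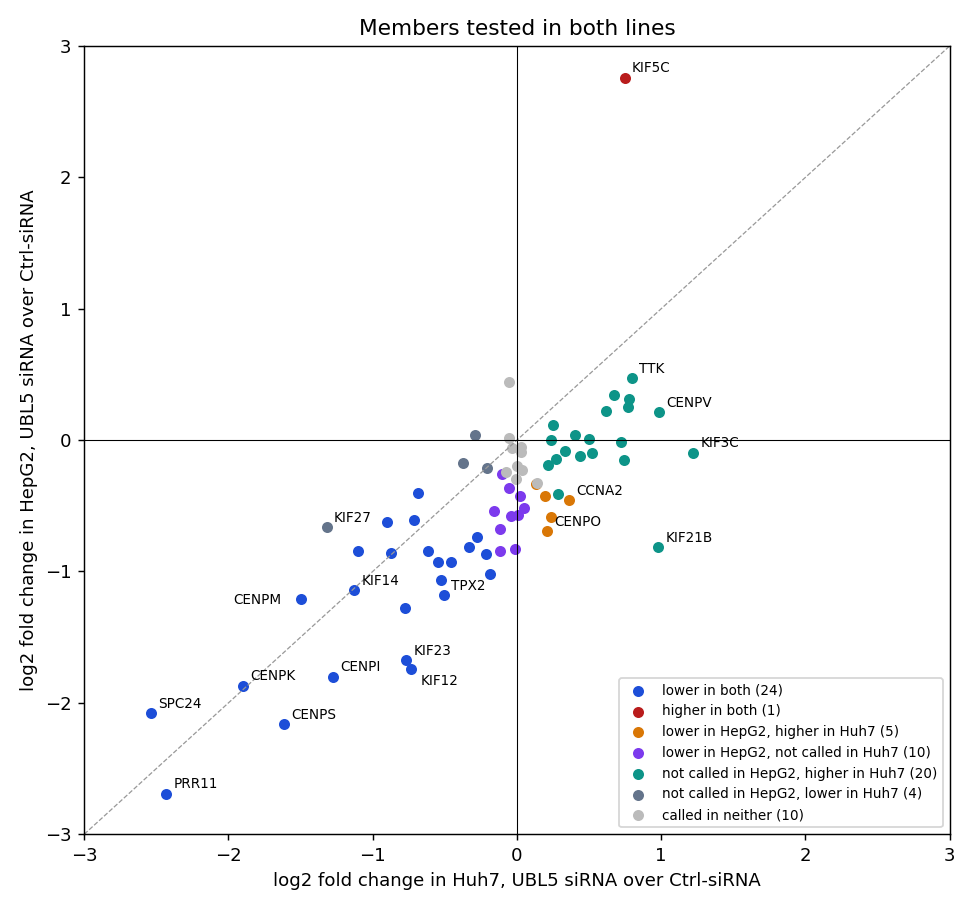
Log2 fold change (UBL5 siRNA over Ctrl-siRNA) of the 74 members tested in both lines, HepG2 on the vertical and Huh7 on the horizontal axis. Each point is a gene, coloured by its calls, and the dashed line marks equal change. PRR11, SPC24 and CENPK lie at the lower left, and KIF5C at the top right rests on few counts in HepG2.

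The promoters of these genes are known for a pair of short elements, the CHR (cell cycle genes homology region), bound by the DREAM and MMB-FOXM1 complexes, and the CCAAT box, bound by NF-Y. RefSeq promoters on GRCh38.p14, 250 bases before to 50 after each start, were matched for 65 of the 78 members and searched on both strands for TTTGAA or TTCGAA as the CHR and for CCAAT. Of the 65, 32 held a CHR match (49.2%), against 16.4% of all 35116 promoters of that length, and 40 held CCAAT (61.5%, against 34.6%). Both were present in 27 (41.5%, against 6.4%). Members were reduced to a single promoter per symbol, which the 35116 were not. The 35116 were also not limited to protein-coding genes, so these shares come from unlike sets. The 48 mitotic members, without the transport kinesins, held a CHR match in 30 (62.5%), and the 17 transport kinesins in 2 (11.8%). A match is a run of letters and not a measured binding site. Only TTTGAA and TTCGAA were searched, so a promoter without a match may still hold another form of the element. The windows below are shown because the genes share the element while their levels went different ways, with the CHR match in capitals on the strand of the gene.
PRR11, lower in both lines, chr17:59155723-59155752, plus strand: caaggatttaatTTTGAAtttttctttatg
KIF23, lower in both lines, chr15:69414282-69414311, plus strand: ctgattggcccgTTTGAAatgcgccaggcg
KIF14, lower in both lines, chr1:200620733-200620762, minus strand: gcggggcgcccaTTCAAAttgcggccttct
CDC20, lower in HepG2, not called in Huh7, chr1:43358904-43358933, plus strand: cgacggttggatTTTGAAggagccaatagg
PLK1, higher in Huh7, not called in HepG2, chr16:23678848-23678877, plus strand: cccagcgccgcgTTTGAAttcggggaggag
KIF18B, higher in Huh7, not called in HepG2, chr17:44947754-44947783, minus strand: ccgcccggctaaTTTGAAcgcaaggcgccg
BUB1B, higher in Huh7, not called in HepG2, chr15:40161034-40161063, plus strand: gggaccgttaaaTTTGAAacttggcggcta
KIF4A, called in neither line, chrX:70290058-70290087, plus strand: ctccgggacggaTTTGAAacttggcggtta
KIF4B, called in neither line, chr5:155013746-155013775, plus strand: ctctgggagggaTTTGAAacttggcggtta

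The match of KIF14 is written as its reverse complement, TTCAAA, because it lies on the other strand. KIF4A and its intronless copy KIF4B differ in 2 of the 30 letters shown, and KIF4A shares a run of 16 letters, aTTTGAAacttggcgg, with BUB1B. Among mitotic members with a promoter, 7 of the 14 that were lower in both lines held a CHR match (50%), as did 9 of the 14 that were higher in Huh7 and not called in HepG2 (64.3%), 5 of the 7 that were lower in HepG2 and not called in Huh7 (71.4%), 7 of the 7 called in neither line, 1 of the 2 that were lower in Huh7 and not called in HepG2 (50%) and 1 of the 4 with opposite calls (25%). Among the members that fell most, SPC24, CENPK, CENPI and CENPS had no match in this window. No test was run on these counts. AURKA, BUB3, CENPH, CENPJ, CENPL, CENPM, KIF13B, KIF21B, KIF26B, KIF27, KIF5A, TPX2 and TTK were not matched.

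The counts by role that follow stand beside 20.1% lower and 16.5% higher over all genes tested in HepG2, and 36.4% lower and 34.9% higher in Huh7. Of the 17 centromere and inner kinetochore CENP genes, 12 were lower and none higher in HepG2 (median log2 fold change −0.67), and 9 were lower and 5 higher in Huh7 (median −0.21). The 7 that were lower in both were CENPA, CENPI, CENPK, CENPL, CENPM, CENPP and CENPS. They include CENPI, CENPK and CENPM, which with CENPH form one complex of the inner kinetochore, and CENPL, the partner of CENPN.

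CENPK (ENSG00000123219, chr5:65517766-65563168, minus strand) is a subunit of that complex. In HepG2 its levels were 8.82, 6.71 and 6.95 CPM with UBL5 siRNA, against 28.7, 24.4 and 29.1 CPM with Ctrl-siRNA. Huh7 had 13.4, 14.1 and 14.9 CPM with UBL5 siRNA and 56.0, 52.8 and 49.7 CPM with Ctrl-siRNA. The groups were far apart in both lines, and the log2 fold change was −1.87 (SE 0.155, adjusted p = 0.000125) in HepG2 and −1.90 (SE 0.0733, adjusted p = 2.31e-09) in Huh7. Its partner CENPI changed by −1.80 (SE 0.215, adjusted p = 0.000448) in HepG2 and −1.28 (SE 0.0896, adjusted p = 1.77e-07) in Huh7, and CENPM by −1.21 (SE 0.258, adjusted p = 0.00676) and −1.49 (SE 0.112, adjusted p = 3.06e-07). The fourth subunit, CENPH, had 13.3 ± 1.82 CPM with UBL5 siRNA and 19.1 ± 2.22 CPM with Ctrl-siRNA in HepG2 (SD, n = 3; log2 fold change −0.52, adjusted p = 0.0275), and in Huh7 its groups overlapped (0.05, adjusted p = 0.645).

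CENPS, a histone-fold protein that also acts in DNA repair, shares 65.0% of its exon bases with the read-through gene CENPS-CORT, so its values are uncertain. It had 1.15, 0.704 and 0.726 CPM with UBL5 siRNA and 3.94, 2.76 and 4.89 CPM with Ctrl-siRNA in HepG2. In Huh7 the values were 1.13, 0.946 and 0.557 CPM with UBL5 siRNA and 2.67, 3.12 and 2.26 CPM with Ctrl-siRNA. The groups did not overlap, at a log2 fold change of −2.16 (SE 0.373, adjusted p = 0.00244) in HepG2 and −1.62 (SE 0.252, adjusted p = 0.000126) in Huh7. Its usual partner CENPX was not called in HepG2 (0.04, adjusted p = 0.89, interval −0.34 to 0.41) and was lower in Huh7 (−0.29, SE 0.0819, adjusted p = 0.0074).

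CENPA, the histone H3 variant that marks the centromere, was lower in both lines, at −0.82 (SE 0.183, adjusted p = 0.00843) in HepG2 and −0.34 (SE 0.0983, adjusted p = 0.00947) in Huh7, where the call was lost in 1 fit over the 12 libraries (adjusted p = 0.0724) and without both replicates 3 (log2 fold change −0.23, adjusted p = 0.0915). CENPL changed by −1.28 (SE 0.17, adjusted p = 0.000721) and −0.78 (SE 0.099, adjusted p = 2.49e-05). CENPP changed by −0.84 (SE 0.283, adjusted p = 0.0452) and −1.11 (SE 0.125, adjusted p = 9.03e-06), and 43.2% of its exon bases lie in IPPK on the other strand. CENPC, the scaffold of the inner kinetochore, had overlapping groups in both lines, with intervals of −0.50 to 0.37 in HepG2 and −0.24 to 0.17 in Huh7.

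CENPO, CENPT and CENPU were called in opposite directions. CENPO and CENPU belong to one complex with CENPP and CENPQ, and CENPT anchors the outer kinetochore. CENPO had 39.3, 35.9 and 27.8 CPM with UBL5 siRNA and 58.6, 59.4 and 48.6 CPM with Ctrl-siRNA in HepG2. In Huh7 it had 48.5, 47.1 and 44.2 CPM with UBL5 siRNA, against 41.2, 40.1 and 39.8 CPM with Ctrl-siRNA. Every UBL5-siRNA library was lower than the Ctrl-siRNA libraries in HepG2 and higher in Huh7, with log2 fold changes of −0.69 (SE 0.147, adjusted p = 0.00642) and 0.21 (SE 0.0591, adjusted p = 0.00798). For CENPT the levels were 29.9, 35.04 and 28.9 CPM with UBL5 siRNA and 45.9, 43.1 and 36.8 CPM with Ctrl-siRNA in HepG2. Its Huh7 levels were 61.5, 63.4 and 63.6 CPM with UBL5 siRNA and 56.2, 52.01 and 56.8 CPM with Ctrl-siRNA. The groups again stood apart in opposite order (−0.42, SE 0.126, adjusted p = 0.0288 in HepG2 and 0.19, SE 0.055, adjusted p = 0.00833 in Huh7). CENPU had 19.7, 17.7 and 19.3 CPM with UBL5 siRNA and 32.7, 27.04 and 25.5 CPM with Ctrl-siRNA in HepG2. In Huh7 its values were 21.1, 21.5 and 18.9 CPM with UBL5 siRNA and 18.6, 17.9 and 15.7 CPM with Ctrl-siRNA. Its changes were −0.59 (SE 0.132, adjusted p = 0.00848) in HepG2 and 0.23 (SE 0.0876, adjusted p = 0.0321) in Huh7. The difference between the lines (HepG2 minus Huh7, tested as an interaction over all 12 libraries) was −0.87 (SE 0.159, adjusted p = 0.00191) for CENPO, −0.59 (SE 0.13, adjusted p = 0.00618) for CENPT and −0.79 (SE 0.162, adjusted p = 0.00371) for CENPU. The Huh7 calls of all 3 were lost in 1 fit over the 12 libraries, while the difference between the lines held without any single library. CENPO and CENPT share 31.6% and 20.2% of their exon bases with ADCY3 and TSNAXIP1 on the other strand, and the strand setting of the counting is not given in the sources used here.

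CENPN, which reads the CENP-A nucleosome, was unlike the members that fell. Its HepG2 levels were 34.3, 32.1 and 31.2 CPM with UBL5 siRNA and 36.9, 33.9 and 33.6 CPM with Ctrl-siRNA. In Huh7 they were 62.6, 62.3 and 58.4 CPM with UBL5 siRNA and 43.2, 42.9 and 41.6 CPM with Ctrl-siRNA. The groups overlapped in HepG2 (−0.10, adjusted p = 0.501) and stood apart in Huh7 (0.52, SE 0.0555, adjusted p = 5.51e-06), and the difference between the lines was −0.59 (SE 0.104, adjusted p = 0.00155). CENPB, which binds a short box in centromeric repeat DNA, was not called in HepG2 (−0.41, adjusted p = 0.132), was called lower there with the replicate number as a block (−0.45, adjusted p = 0.0305) and was higher in Huh7 (0.28, SE 0.0662, adjusted p = 0.00237). CENPN shares 23.1% of its exon bases with other genes, mostly with ENSG00000261061.

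Of 6 outer kinetochore members, 5 were lower in HepG2 (median log2 fold change −0.67), beside 20.1% of all genes, and 4 in Huh7 (median −0.50), beside 36.4%, and none was higher in either. SPC24 (ENSG00000161888, chr19:11131520-11155807, minus strand), a subunit of the NDC80 complex at the end that faces the chromosome, fell most of the 6. It had 5.56, 3.6 and 2.9 CPM with UBL5 siRNA and 22.5, 17.2 and 11.4 CPM with Ctrl-siRNA in HepG2. Huh7 had 3.94, 4.48 and 3.99 CPM with UBL5 siRNA and 26.4, 23.3 and 22.2 CPM with Ctrl-siRNA. The highest UBL5-siRNA library was below the lowest Ctrl-siRNA library in each line, and the log2 fold change was −2.08 (SE 0.306, adjusted p = 0.00116) in HepG2 and −2.54 (SE 0.106, adjusted p = 3.88e-09) in Huh7. SPC24 thus fell by 76.3% in HepG2 and fell by 82.8% in Huh7.

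The other 3 subunits of that complex had smaller changes than SPC24. NDC80, which holds the microtubule-binding head, changed by −0.74 (SE 0.154, adjusted p = 0.00601) in HepG2 and −0.28 (SE 0.0671, adjusted p = 0.00281) in Huh7. NUF2, its partner, changed by −0.61 (SE 0.141, adjusted p = 0.00969) and −0.72 (SE 0.0599, adjusted p = 7.29e-07). SPC25, the partner of SPC24, changed by −0.54 (SE 0.146, adjusted p = 0.0193) in HepG2, and its groups overlapped in Huh7 (−0.16, adjusted p = 0.099). The 95% intervals of SPC24 (−2.77 to −1.38 in HepG2 and −2.77 to −2.30 in Huh7) did not overlap those of SPC25 (−0.87 to −0.21 and −0.33 to 0.02).

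CENPE, the kinesin of the outer kinetochore that carries chromosomes to the spindle equator, fell in both lines. In HepG2 it had 30.9, 25.4 and 25.99 CPM with UBL5 siRNA, against 55.3, 42.4 and 51.4 CPM with Ctrl-siRNA. The Huh7 libraries held 34.98, 40.6 and 35.8 CPM with UBL5 siRNA and 67.7, 65.8 and 70.7 CPM with Ctrl-siRNA. No UBL5-siRNA library reached the Ctrl-siRNA range, and the log2 fold change was −0.86 (SE 0.134, adjusted p = 0.00152) in HepG2 and −0.88 (SE 0.0668, adjusted p = 3.43e-07) in Huh7 (difference 0.04, interval −0.29 to 0.37). CENPF, a large protein of the outer kinetochore and nuclear envelope, overlapped between the groups in both lines, with intervals of −0.35 to 0.24 in HepG2 and −0.07 to 0.13 in Huh7.

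**Figure D3:**
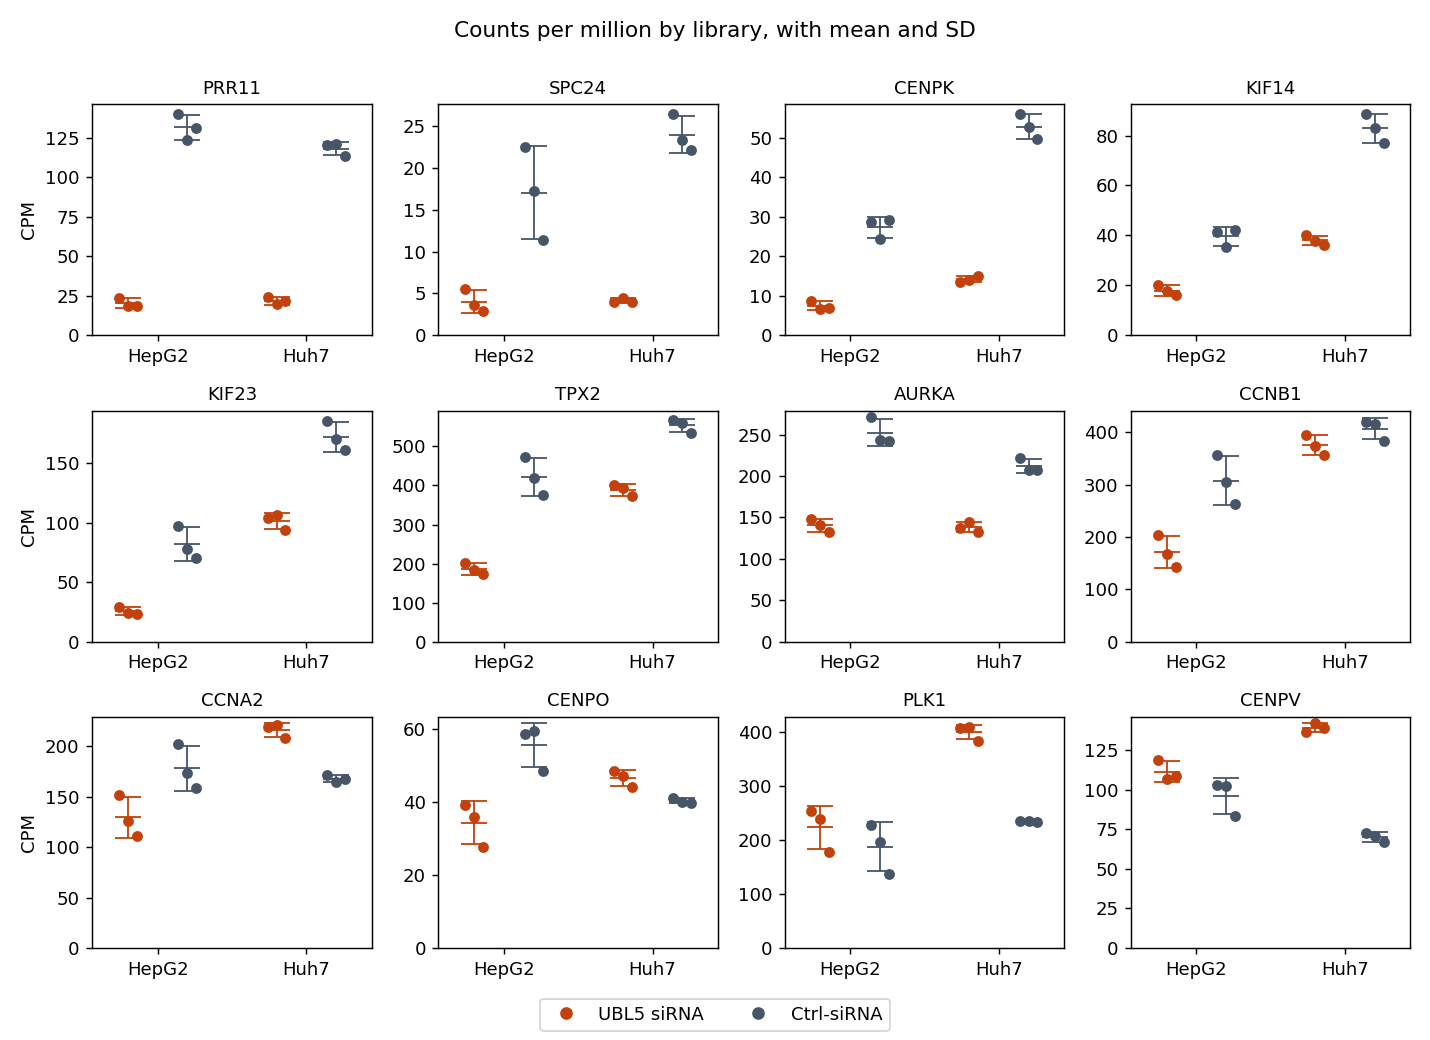
CPM of 12 members in each library, with UBL5 siRNA (orange) left of Ctrl-siRNA (grey) in HepG2 and in Huh7. Points are libraries, and bars give the mean ± SD (n = 3). PRR11, SPC24, CENPK, KIF14, KIF23, TPX2 and AURKA lie lower with UBL5 siRNA in both lines, CCNA2 and CENPO lie lower in HepG2 and higher in Huh7, and PLK1 and CENPV lie higher in Huh7, with PLK1 overlapping between the groups in HepG2.

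PRR11 (ENSG00000068489, chr17:59155732-59206709, plus strand), which encodes a proline-rich protein of G2 and M phase, had the lowest log2 fold change of the members in HepG2 and the lowest after SPC24 in Huh7. HepG2 had 23.9, 18.4 and 18.8 CPM of PRR11 with UBL5 siRNA and 140.0, 124 and 131 CPM with Ctrl-siRNA. In Huh7 there were 24.5, 19.5 and 21.7 CPM with UBL5 siRNA and 121, 121 and 113 CPM with Ctrl-siRNA. All 6 libraries with UBL5 siRNA were below 25 CPM and all 6 with Ctrl-siRNA above 113 CPM. The log2 fold change was −2.69 (SE 0.126, adjusted p = 2.31e-05) in HepG2 and −2.43 (SE 0.0754, adjusted p = 7.07e-10) in Huh7. PRR11 fell by 84.5% in HepG2 and fell by 81.5% in Huh7, and the difference between the lines was not called (−0.23, interval −0.55 to 0.09).

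TPX2 (ENSG00000088325, chr20:31739271-31801805, plus strand), which nucleates spindle microtubules and activates Aurora A, was among the most abundant members. Its levels were 202, 185 and 172 CPM with UBL5 siRNA and 472, 418 and 376 CPM with Ctrl-siRNA in HepG2. The Huh7 levels were 401, 394 and 372 CPM with UBL5 siRNA and 567, 560.3 and 534 CPM with Ctrl-siRNA. The groups stood apart in both lines, and the fall was larger in HepG2 (−1.18, SE 0.105, adjusted p = 0.000155) than in Huh7 (−0.51, SE 0.0467, adjusted p = 1.6e-06), with a difference of −0.64 (SE 0.113, adjusted p = 0.00151). PRC1, which bundles the microtubules of the spindle midzone, shares 61.9% of its exon bases with another gene model and had under 11 CPM in every library, so its values (0.22, adjusted p = 0.65, in HepG2 and 0.62, SE 0.117, adjusted p = 0.000542 in Huh7) are uncertain.

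Among the 5 Aurora, Polo and chromosomal passenger genes, 3 were lower in HepG2, and 2 were lower and 2 higher in Huh7. AURKA (ENSG00000087586, chr20:56369389-56392337, minus strand), the Aurora kinase of the spindle poles, had 149, 140.4 and 133 CPM with UBL5 siRNA and 272, 243 and 242 CPM with Ctrl-siRNA in HepG2. In Huh7 it had 137, 145 and 133 CPM with UBL5 siRNA and 222, 208 and 207 CPM with Ctrl-siRNA. The groups were far apart in both lines, at −0.85 (SE 0.086, adjusted p = 0.000244) in HepG2 and −0.62 (SE 0.0503, adjusted p = 5.86e-07) in Huh7. AURKB, the Aurora kinase of the passenger complex, had 54.2, 40.8 and 33.8 CPM with UBL5 siRNA and 93.2, 81.6 and 60.1 CPM with Ctrl-siRNA in HepG2. Its Huh7 levels were 144, 139 and 123 CPM with UBL5 siRNA and 164, 158 and 149 CPM with Ctrl-siRNA. All UBL5-siRNA libraries were lower, at −0.87 (SE 0.202, adjusted p = 0.0102) in HepG2 and −0.22 (SE 0.0622, adjusted p = 0.00875) in Huh7. The difference between the lines was −0.62 (adjusted p = 0.0646), and with the replicate number as a block its adjusted p was 0.000716. Borealin (CDCA8) was lower in HepG2 (−0.58, SE 0.156, adjusted p = 0.0187) and overlapped in Huh7 (−0.04, adjusted p = 0.52). INCENP, the scaffold of the complex, overlapped in HepG2 (−0.14, adjusted p = 0.548) and was higher in Huh7 (0.27, SE 0.0568, adjusted p = 0.00103).

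PLK1 (ENSG00000166851, chr16:23677656-23690367, plus strand), the Polo kinase of mitotic entry, did not fall in Huh7, where both Aurora kinases did. HepG2 had 254, 239 and 178 CPM of PLK1 with UBL5 siRNA and 228, 197 and 138 CPM with Ctrl-siRNA. Huh7 had 407, 408 and 384 CPM with UBL5 siRNA and 235, 235 and 233 CPM with Ctrl-siRNA. The HepG2 groups overlapped (0.26, SE 0.19, adjusted p = 0.334), while in Huh7 all 3 UBL5-siRNA libraries were higher, 1.71-fold on the fitted scale (0.77, SE 0.0433, adjusted p = 3.11e-08). With the replicate number as a block, PLK1 was called higher in HepG2 as well (log2 fold change 0.27, adjusted p = 0.0193), and the difference between the lines (−0.49) had an adjusted p of 0.00132 with the block and of 0.117 without it, and of 0.00484 without HepG2 Ctrl-siRNA replicate 3.

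Of the 5 cyclin, CDK1 and CDC20 genes, 4 were lower in HepG2 (median log2 fold change −0.46). In Huh7, 1 was higher and none lower (median 0.00). CCNB1, the gene of cyclin B1 and the most abundant member per kb of exon in both lines, had 205, 168 and 144 CPM with UBL5 siRNA and 356, 306 and 262 CPM with Ctrl-siRNA in HepG2. Its Huh7 levels were 395, 375 and 357 CPM with UBL5 siRNA and 421, 416 and 384 CPM with Ctrl-siRNA. The groups were apart in HepG2 (−0.84, SE 0.15, adjusted p = 0.00282) and overlapped in Huh7 (−0.12, adjusted p = 0.0686), with a difference between the lines of −0.70 (SE 0.167, adjusted p = 0.00929). CCNB2, the gene of cyclin B2, had 75.7, 63.2 and 59.8 CPM with UBL5 siRNA and 84.8, 71.1 and 72.5 CPM with Ctrl-siRNA in HepG2. Levels in Huh7 were 90.4, 92.2 and 85.1 CPM with UBL5 siRNA and 87.1, 91.6 and 88.6 CPM with Ctrl-siRNA. Its groups overlapped in both lines, with intervals of −0.47 to 0.07 in HepG2 and −0.11 to 0.11 in Huh7.

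CDK1, the kinase that the B cyclins activate, had 105, 87.5 and 92.7 CPM with UBL5 siRNA and 138, 108 and 122 CPM with Ctrl-siRNA in HepG2. The Huh7 values were 152, 149 and 146 CPM with UBL5 siRNA and 172, 148 and 144 CPM with Ctrl-siRNA. It was lower in HepG2 (−0.37, SE 0.115, adjusted p = 0.0348), a call lost when replicate 2 or 3 of the UBL5-siRNA libraries or replicate 1 of the controls was left out, and it overlapped in Huh7 (−0.06, adjusted p = 0.439). CCNA2, the gene of cyclin A2, was called in opposite directions. It had 152, 126 and 111 CPM with UBL5 siRNA and 202, 174 and 158 CPM with Ctrl-siRNA in HepG2. In Huh7 there were 219, 221 and 208 CPM with UBL5 siRNA and 172, 165 and 167 CPM with Ctrl-siRNA. It was lower in HepG2 (−0.46, SE 0.134, adjusted p = 0.0264) and higher in Huh7 (0.36, SE 0.0443, adjusted p = 1.69e-05), with a difference of −0.80 (SE 0.145, adjusted p = 0.00191). Its HepG2 call was lost without any of 4 single libraries (Ctrl-siRNA replicates 1 and 2, UBL5-siRNA replicates 2 and 3). CDC20, the activator of the anaphase-promoting complex, was lower in HepG2 (−0.57, SE 0.154, adjusted p = 0.0189) and overlapped in Huh7 (0.01, interval −0.10 to 0.11).

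Of 5 spindle checkpoint members, 2 were lower in HepG2 (BUB1 at −0.43, SE 0.0832, adjusted p = 0.00438 and BUB3 at −0.26, SE 0.0781, adjusted p = 0.0289) and 3 were higher in Huh7. The difference between the lines was called for BUB1 (−0.42, SE 0.0945, adjusted p = 0.00652) and BUB1B, and not for BUB3 (adjusted p = 0.334), MAD2L1 (adjusted p = 0.667) or TTK (adjusted p = 0.235). For TTK it was called without HepG2 Ctrl-siRNA replicate 3 (−0.45, adjusted p = 0.00987) and without both HepG2 replicates 3 (−0.42, adjusted p = 0.0135). BUB1B, which encodes the checkpoint protein BUBR1, had 95.99, 93.3 and 84.8 CPM with UBL5 siRNA and 104, 93.8 and 91.97 CPM with Ctrl-siRNA in HepG2. Its Huh7 levels were 188, 192 and 190.2 CPM with UBL5 siRNA and 159, 148 and 145 CPM with Ctrl-siRNA. The groups overlapped in HepG2 (−0.08, adjusted p = 0.534) and stood apart in Huh7 (0.34, SE 0.0473, adjusted p = 5.74e-05), and the lines differed by −0.39 (SE 0.0963, adjusted p = 0.0113). For TTK, the kinase that starts the checkpoint signal, every UBL5-siRNA library lay above the Ctrl-siRNA libraries of its line. It averaged 44.7 ± 2.77 CPM with UBL5 siRNA and 32.3 ± 7.4 CPM with Ctrl-siRNA in HepG2, and 188 ± 2.66 and 108 ± 3.62 CPM in Huh7 (SD, n = 3 each). Its log2 fold change was 0.47 (SE 0.163, adjusted p = 0.0503) in HepG2, where the adjusted p was 0.0142 with the replicate block, and 0.80 (SE 0.0449, adjusted p = 3.11e-08) in Huh7. MAD2L1, the checkpoint protein MAD2, was higher in Huh7 (0.25, SE 0.0639, adjusted p = 0.00405) and overlapped in HepG2 (0.12, adjusted p = 0.532).

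Of the 13 mitotic kinesins, 3 were lower and none higher in HepG2 (median log2 fold change −0.23), beside 20.1% and 16.5% of all genes, and 3 were lower and 6 higher in Huh7 (median 0.14), beside 36.4% and 34.9%. The share that was lower in HepG2 is thus near that of all genes. The same 3 genes fell in both lines, namely KIF14, KIF15 and KIF23. KIF23 (ENSG00000137807, chr15:69414246-69448427, plus strand), the motor of centralspindlin that bundles midzone microtubules for cytokinesis, had 29.5, 24.1 and 23.4 CPM with UBL5 siRNA and 97.5, 78.1 and 70.5 CPM with Ctrl-siRNA in HepG2. In Huh7 it had 104, 106 and 93.9 CPM with UBL5 siRNA and 186, 169.8 and 161 CPM with Ctrl-siRNA. The groups were well apart in both lines. The fall was larger in HepG2 (−1.68, SE 0.149, adjusted p = 0.000155) than in Huh7 (−0.77, SE 0.0639, adjusted p = 7.06e-07), by −0.88 (SE 0.164, adjusted p = 0.00226).

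KIF14 (ENSG00000118193, chr1:200551497-200620751, minus strand), which recruits citron kinase to the midbody, had 20.1, 17.8 and 15.98 CPM with UBL5 siRNA and 41.3, 35.2 and 42.4 CPM with Ctrl-siRNA in HepG2. The Huh7 levels were 40.01, 37.9 and 36.02 CPM with UBL5 siRNA and 88.8, 82.9 and 76.9 CPM with Ctrl-siRNA. It fell by 54.7% in HepG2 (−1.14, SE 0.131, adjusted p = 0.000375) and by 54.2% in Huh7 (−1.13, SE 0.0669, adjusted p = 4.55e-08), and the difference between the lines had an interval of −0.30 to 0.33. KIF15, a motor that helps to keep the spindle bipolar, was lower, at −1.02 (SE 0.165, adjusted p = 0.00181) in HepG2 and −0.19 (SE 0.0512, adjusted p = 0.00593) in Huh7, with a difference of −0.80 (SE 0.174, adjusted p = 0.0054). KIF11 (Eg5), the main motor that pushes the poles apart, overlapped in HepG2 (0.01, interval −0.36 to 0.38) and was higher in Huh7 (0.50, SE 0.0584, adjusted p = 1.16e-05).

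The other 5 mitotic kinesins that were higher in Huh7 were KIF2A (0.78, SE 0.0532, adjusted p = 1.39e-07), KIF18B (0.75, SE 0.0674, adjusted p = 1.41e-06), KIF22 (0.44, SE 0.0463, adjusted p = 5.45e-06), KIF20A (0.23, SE 0.0596, adjusted p = 0.00414) and KIF2C (0.22, SE 0.0462, adjusted p = 0.00128). KIF2A, KIF2C and KIF18B shorten microtubules, KIF22 is the chromokinesin Kid, and KIF20A carries the passenger complex to the midzone. None of the 5 was called in HepG2 in the main fit. Without HepG2 Ctrl-siRNA replicate 3, KIF2C was lower there (−0.33, adjusted p = 0.0227), and its difference between the lines was −0.51 (adjusted p = 0.00179). KIF2A was higher in HepG2 with DESeq2's Wald test (adjusted p = 0.0487) and in 1 fit over all 12 libraries (adjusted p = 0.0201). The difference between the lines was called for KIF18B (−0.87, SE 0.184, adjusted p = 0.00466), KIF22 (−0.53, SE 0.149, adjusted p = 0.0227) and KIF2A (−0.44, SE 0.144, adjusted p = 0.0427), the last with an adjusted p of 0.0673 with the replicate block. KIF2A shares 21.3% of its exon bases with DIMT1 on the other strand. KIF4A, a chromokinesin, and KIF4B were not called in either line, and reads of these near-identical genes may have been split between them. KIF18A was not called either. KIF20B was not called in HepG2 (−0.33, adjusted p = 0.0909) or in Huh7 (0.14, adjusted p = 0.0647), but with the replicate number as a block it was lower in HepG2 (−0.32, adjusted p = 0.0313) and the difference between the lines had an adjusted p of 0.0189.

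**Figure D4:**
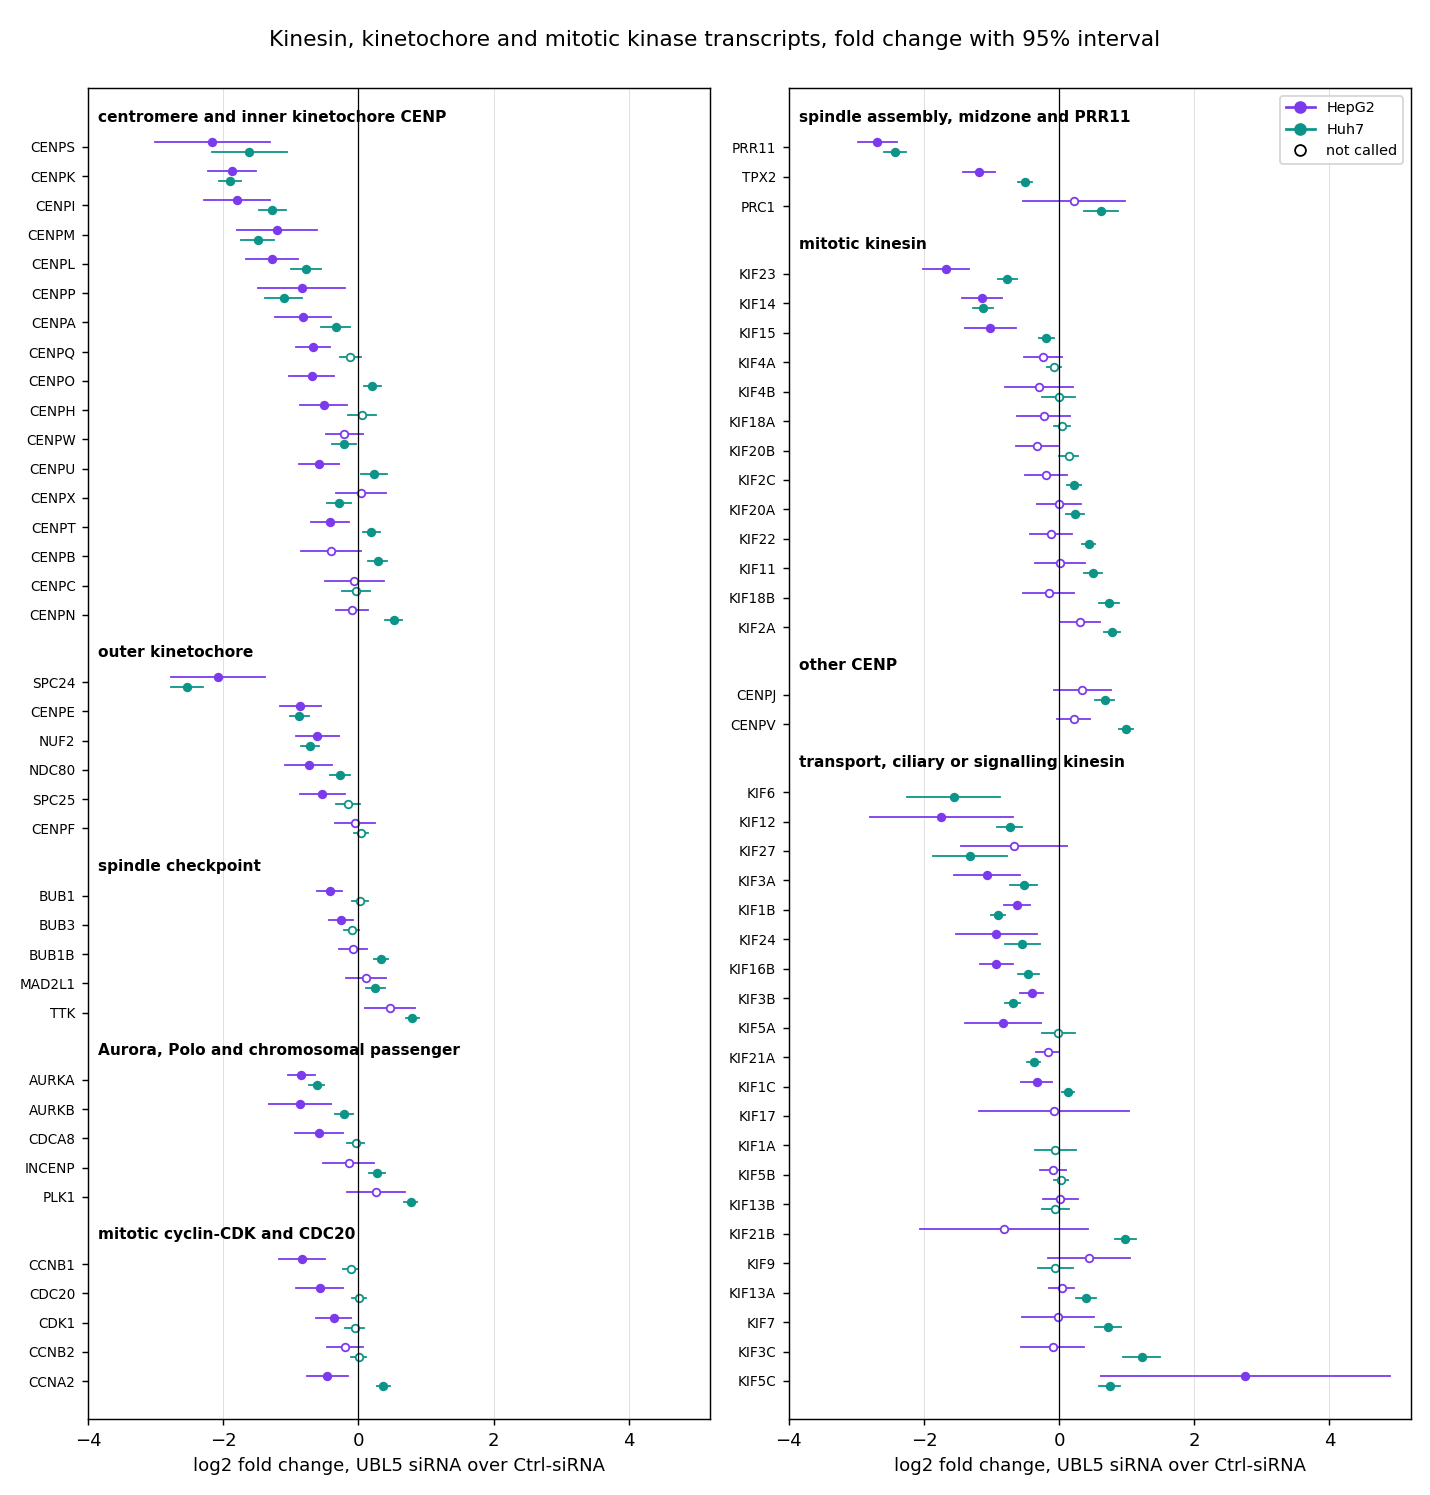
Log2 fold change (UBL5 siRNA over Ctrl-siRNA) of every member tested, by role, with its 95% interval, in HepG2 (purple, upper of each pair) and Huh7 (green, lower). Filled points were called (adjusted p under 0.05) and open points were not. The centromere and outer kinetochore genes lie mostly left of 0, and the mitotic kinesins spread from KIF23 and KIF14 on the left to KIF18B and KIF2A on the right in Huh7.

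CENPJ and CENPV bear the CENP name without a place in the kinetochore core. CENPJ builds centrioles and CENPV acts on centromeric heterochromatin and the midzone. CENPV had 119, 107 and 108 CPM with UBL5 siRNA and 103, 102 and 83.1 CPM with Ctrl-siRNA in HepG2. Its Huh7 levels were 136, 142 and 139 CPM with UBL5 siRNA and 72.7, 70.8 and 66.9 CPM with Ctrl-siRNA. All UBL5-siRNA libraries lay above the Ctrl-siRNA libraries in both lines, at 0.21 in HepG2 (adjusted p = 0.151) and 1.98-fold in Huh7 (0.99, SE 0.0487, adjusted p = 1.19e-08), and the lines differed by −0.75 (SE 0.116, adjusted p = 0.00067). CENPJ was higher in Huh7 (0.67, SE 0.0628, adjusted p = 1.8e-06) and overlapped in HepG2 (0.35, adjusted p = 0.174).

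Among the kinesins of transport, cilia and signalling, 8 of 19 tested were lower and 1 higher in HepG2 (median log2 fold change −0.33), beside 20.1% and 16.5% of all genes. In Huh7, 9 of 20 were lower and 6 higher (median −0.06), which is near the 36.4% and 34.9% of all genes. These are not cell cycle genes as a class. Lower in both lines were KIF1B, KIF3A, KIF3B, KIF12, KIF16B and KIF24. KIF24, which restrains cilium assembly, changed by −0.93 (SE 0.263, adjusted p = 0.0228) in HepG2 and −0.55 (SE 0.117, adjusted p = 0.00131) in Huh7. KIF16B, a motor of early endosomes, changed by −0.93 (SE 0.108, adjusted p = 0.000398) and −0.46 (SE 0.0702, adjusted p = 0.000109).

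KIF12, a kinesin of the biliary and renal epithelium, was near the limit of detection in HepG2, with 0.706, 0.994 and 0.415 CPM with UBL5 siRNA and 2.41, 1.67 and 3.06 CPM with Ctrl-siRNA. Levels in Huh7 were 38.6, 40.9 and 44.9 CPM with UBL5 siRNA and 62.9, 67.4 and 76.9 CPM with Ctrl-siRNA. The groups did not overlap in either line (−1.74, SE 0.468, adjusted p = 0.0187 in HepG2 and −0.73, SE 0.0816, adjusted p = 8.07e-06 in Huh7). The HepG2 call rests on 8 to 24 counts per library with UBL5 siRNA, and the difference between the lines (−0.97, SE 0.322, adjusted p = 0.046) was not called with the replicate block (adjusted p = 0.0599).

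KIF5C, a neuronal heavy chain of conventional kinesin, was the 1 member higher in both lines. HepG2 had 0.926, 0.58 and 0.934 CPM with UBL5 siRNA and 0.23, 0.126 and 0 CPM with Ctrl-siRNA, which is 21, 14 and 18 counts against 6, 3 and 0. In Huh7 it had 42.5, 49.8 and 48.5 CPM with UBL5 siRNA and 28.9, 27.3 and 27.6 CPM with Ctrl-siRNA. The Huh7 groups stood apart at 0.75 (SE 0.0721, adjusted p = 2.4e-06), while the HepG2 value (2.76, SE 0.944, adjusted p = 0.0482) depends on very few counts and had an adjusted p of 0.0869 with the replicate block and of 0.0771 with no filter on low counts. KIF5B, the heavy chain made in every tissue, was not called, with intervals of −0.28 to 0.10 in HepG2 and −0.07 to 0.13 in Huh7.

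KIF1C, a motor of the Golgi and of long-range vesicle transport, was called in opposite directions by small amounts. It had 322, 318 and 257 CPM with UBL5 siRNA and 363, 391 and 376 CPM with Ctrl-siRNA in HepG2. The Huh7 values were 336, 338 and 338 CPM with UBL5 siRNA and 312, 309 and 304 CPM with Ctrl-siRNA. It was lower in HepG2 (−0.33, SE 0.0991, adjusted p = 0.0283) and higher in Huh7 (0.13, SE 0.04, adjusted p = 0.0122), and the lines differed by −0.44 (SE 0.105, adjusted p = 0.00952). Neither call held without both replicates 3 (adjusted p = 0.0709 in HepG2 and 0.0577 in Huh7).

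KIF21B, a motor that paces microtubule growth, had the smallest p of the difference between the lines. HepG2 had 0.441, 0.497 and 0.363 CPM with UBL5 siRNA and 0.613, 0.795 and 0.898 CPM with Ctrl-siRNA, at 7 to 27 counts per library. The Huh7 libraries held 61.98, 60.8 and 52.4 CPM with UBL5 siRNA and 29.03, 30.4 and 29.3 CPM with Ctrl-siRNA. UBL5 siRNA left every HepG2 library below the Ctrl-siRNA libraries (−0.82, adjusted p = 0.283) and every Huh7 library above them, 1.97-fold (0.98, SE 0.0727, adjusted p = 2.7e-07). The difference was −1.77 (SE 0.256, adjusted p = 0.000441).

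Closely related kinesins did not always move together in Huh7. KIF3A and KIF3B, the motor pair of intraflagellar transport, were lower (−0.52, SE 0.0924, adjusted p = 0.000319 and −0.68, SE 0.0509, adjusted p = 2.81e-07) while their relative KIF3C was higher (1.22, SE 0.124, adjusted p = 3.67e-06). KIF1B was lower (−0.90, SE 0.0466, adjusted p = 1.71e-08) and KIF1C higher, KIF21A was lower (−0.37, SE 0.0435, adjusted p = 1.19e-05) and KIF21B higher, and KIF27 was lower (−1.32, SE 0.248, adjusted p = 0.000522), at 12 to 20 counts per library with UBL5 siRNA and 34 to 62 with Ctrl-siRNA, while KIF7, its relative in Hedgehog signalling, was higher (0.72, SE 0.0865, adjusted p = 1.49e-05). The 95% intervals of the gene that was lower and the gene that was higher did not overlap in any of these pairs. In HepG2, KIF3A (−1.07, SE 0.215, adjusted p = 0.00512), KIF3B (−0.41, SE 0.0741, adjusted p = 0.00316) and KIF1B (−0.62, SE 0.0861, adjusted p = 0.000858) were lower as well, whereas KIF3C, KIF7, KIF21A, KIF21B and KIF27 were not called. KIF6, listed in Huh7 only, was lower there (−1.56, SE 0.315, adjusted p = 0.000855) at 6 to 35 counts per library.

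Over the 74 members, the change differed between the lines for 28 (37.8%, beside 21.5% of the 15668 genes tested). It was lower in HepG2 than in Huh7 for 25 (33.8%, beside 11.7% of all genes) and higher for 3, KIF1B, KIF3B and KIF5C (4.05%, beside 9.88%). Of the 28, 18 held without any single library. With the replicate number as a block within each line, 34 were lower in HepG2 than in Huh7 and 5 higher. The calls gained were those of AURKB, CDK1, CENPA, CENPH, CENPX, INCENP, KIF2C, KIF7, KIF11, KIF20B, KIF21A, NDC80 and PLK1 (adjusted p of 0.000716 to 0.0428), and KIF2A and KIF12 were lost. Without HepG2 Ctrl-siRNA replicate 3 these counts were 31 and 4. The 10 that were lost without at least 1 of the 12 libraries were CDCA8, CDC20, CENPB, KIF1B, KIF2A, KIF3B, KIF12, KIF13A, KIF16B and KIF22.

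The lines also differed without UBL5 knockdown. With Ctrl-siRNA, 40 of 74 members were lower in HepG2 than in Huh7 (54.1%, beside 32.0% of all genes) and 14 were higher (18.9%, beside 31.7%), so that 54 differed (73.0%, beside 63.7%). The kinesins differed most, with KIF21B (−5.15, SE 0.144, adjusted p = 3.18e-12), KIF5C (−7.80, SE 0.308, adjusted p = 7.46e-11) and KIF12 (−4.74, SE 0.191, adjusted p = 8.83e-11) lower in HepG2 and KIF13A (2.38, SE 0.0731, adjusted p = 6.18e-12) and KIF3C (2.33, SE 0.202, adjusted p = 1.92e-07) higher, all as the log2 level in HepG2 minus that in Huh7. TTK (−1.66, SE 0.12, adjusted p = 3.18e-08) and CENPF (−1.20, SE 0.101, adjusted p = 1.38e-07) were also lower in HepG2.

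Per kb of exon, the most abundant members in the Ctrl-siRNA libraries of both lines were CCNB1 and TPX2. CCNB1 stood at 70.7 CPM per kb with UBL5 siRNA and 127 with Ctrl-siRNA in HepG2, and at 154 and 167 in Huh7. TPX2 stood at 51.6 and 117 CPM per kb in HepG2 and at 108 and 154 in Huh7. In HepG2 the lowest levels were those of KIF21B, KIF26B and KIF5C, at 0.0357, 0.0165 and 0.0245 CPM per kb with UBL5 siRNA and 0.0632, 0.0324 and 0.00357 with Ctrl-siRNA. Across members, the Spearman rho between exon number and log2 fold change was 0.129 in HepG2 (75 genes) and 0.0734 in Huh7 (76 genes), beside −0.119 and −0.0486 over all protein-coding genes tested. For the summed exon bases it was 0.171 in HepG2 and 0.069 in Huh7 (beside −0.0345 and −0.0218), and for gene length 0.0203 and −0.171 (beside −0.0635 and −0.117). The members had a median of 16 exons in HepG2 and 16.5 in Huh7, against 9 for protein-coding genes. Genes are not independent, and no test was run.

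Other genes of the same process were read from 8 lists (outer kinetochore and its assembly, checkpoint, mitotic entry, the anaphase-promoting complex, spindle and cytokinesis, condensin, G2/M transcription factors and S phase). Of 110 tested, 63 were lower and 4 higher in HepG2 (median log2 fold change −0.52), beside 20.1% and 16.5% of all genes. In Huh7, 53 were lower and 25 higher (median −0.12), beside 36.4% and 34.9%, and all genes tested had the medians of 0.01 and −0.01 given above for HepG2 and Huh7. All 9 genes of condensin and TOP2A were lower in HepG2 (median −0.72), and 7 were lower in Huh7 (median −0.37). Of 18 outer kinetochore and assembly genes, 12 were lower and 1 higher in HepG2, and 12 were lower and 4 higher in Huh7. The S phase list had 10 of 14 lower and none higher in HepG2 (median −0.84) and 7 lower and 4 higher in Huh7 (median −0.17).

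Some genes of these lists fell at least 2-fold in both lines. ITGB3BP, which encodes CENP-R of the inner kinetochore, had 8.33, 5.38 and 4.51 CPM with UBL5 siRNA and 27.1, 19.9 and 31.4 CPM with Ctrl-siRNA in HepG2. Its Huh7 levels were 7.59, 6.92 and 8.87 CPM with UBL5 siRNA and 30.4, 30.2 and 27.4 CPM with Ctrl-siRNA. The groups were far apart, at −2.10 (SE 0.255, adjusted p = 0.000479) in HepG2 and −1.91 (SE 0.0979, adjusted p = 1.59e-08) in Huh7. KNTC1, the Rod subunit of the complex that brings dynein to kinetochores, changed by −1.72 (SE 0.197, adjusted p = 0.000372) and −1.86 (SE 0.078, adjusted p = 3.89e-09). KIFC1, a minus-end kinesin outside the symbol rule, changed by −1.64 (SE 0.197, adjusted p = 0.000463) and −1.0 (SE 0.0564, adjusted p = 3.12e-08), and HMMR, a spindle pole protein, by −1.26 (SE 0.153, adjusted p = 0.000482) and −1.09 (SE 0.0731, adjusted p = 1.26e-07). Each of these was lower in all 3 UBL5-siRNA libraries of both lines.

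The remaining lists had calls in both directions in Huh7. Their counts stand beside 20.1% lower and 16.5% higher over all genes in HepG2, and 36.4% and 34.9% in Huh7. Mitotic entry regulators were lower for 9 of 12 and higher for none in HepG2, and lower for 4 and higher for 3 in Huh7. Among them WEE1, the kinase that holds CDK1 inactive, was at 0.22 (adjusted p = 0.347) in HepG2 and 0.31 (SE 0.0462, adjusted p = 9.96e-05) in Huh7. The spindle and cytokinesis list had 8 of 14 lower and none higher in HepG2, and 6 of 15 lower and 4 higher in Huh7. Of 20 genes of the anaphase-promoting complex and its partners, 5 were lower and 1 higher in HepG2 and 8 lower and 3 higher in Huh7 (beside 36.4% and 34.9% of all genes), among them the subunit ANAPC7 (−1.08, SE 0.114, adjusted p = 0.000274 in HepG2 and −1.61, SE 0.0682, adjusted p = 4.09e-09 in Huh7). Among 7 checkpoint and centromere guardians, 3 were lower and 1 higher in HepG2, and in Huh7 2 of the 6 tested were lower and 2 higher. TRIP13, which resets the checkpoint protein MAD2, was lower in both lines (−1.31, SE 0.107, adjusted p = 0.000117 and −0.68, SE 0.0619, adjusted p = 1.51e-06).

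The G2/M transcription factors were lower for 7 of 16 and higher for 1 in HepG2, beside 20.1% and 16.5% of all genes. In Huh7, 7 were lower and 5 higher, near the 36.4% and 34.9% of all genes. NFYA, a subunit of the CCAAT-binding factor, was higher in both. It had 94.6, 101 and 95.2 CPM with UBL5 siRNA and 55.95, 58.05 and 55.96 CPM with Ctrl-siRNA in HepG2. The Huh7 values were 130.2, 122 and 122 CPM with UBL5 siRNA and 51.99, 49.4 and 52.6 CPM with Ctrl-siRNA. No libraries of the siRNA groups overlapped (0.78, SE 0.0829, adjusted p = 0.000285 in HepG2 and 1.28, SE 0.0518, adjusted p = 3.13e-09 in Huh7). RBL2, the p130 pocket protein of the DREAM complex, was lower in both (−0.76, SE 0.0979, adjusted p = 0.000644 and −1.06, SE 0.0576, adjusted p = 2.44e-08).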

How the data were processed

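The deposited tables hold raw gene counts per library, split within each line by the sign of the authors' fold change and joined again here, which the authors made with STAR 2.7.6a and featureCounts on GRCh38, after FastQC 0.11.9. The kit was TruSeq stranded mRNA, and the strand setting of the counting is not given in the sources used here. Columns of the authors' own comparison (base mean, log2 fold change, its error, Wald statistic, p and adjusted p, from DESeq2 1.30.0) were not used.

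Counts were fitted within each line (3 libraries against 3) with edgeR 4.0.16 in R 4.3.3 (filterByExpr with a minimum count of 10, TMM, quasi-likelihood F test, Benjamini-Hochberg over all genes). The difference between lines and the control levels came from 1 fit over 12 libraries. Positions and exon overlaps came from GENCODE 44, which held 17603 of 17640 HepG2 and 18398 of 18434 Huh7 identifiers, and promoters from RefSeq. The fits were also run on simulated data, in which far fewer genes changed than here and the libraries were independent. No result here rests on that run. Python 3.11.15 made the summaries.

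Same-numbered HepG2 libraries deviated together (r = 0.408, 0.319 and 0.336 over genes with a mean CPM of at least 10). The main HepG2 fit was nevertheless without pairs, so its counts, intervals and p-values take no account of this. The value from the fit with the replicate block is given where it changes a member's call. In Huh7 r was 0.437, 0.0625 and 0.567, and the main fit was without pairs there too. Members and lists were chosen with earlier results of these data known. Every library's value is given for 25 members: in each role the 2 with the largest mean change among those called alike in both lines, the 4 with the smallest p of the interaction, those called in opposite directions, and PLK1, AURKA, AURKB, CDK1, CCNB1, CCNB2, BUB1B and PRR11. Of each other list, the 2 genes with the smallest adjusted p could be named. Depth was 19.5 to 29.7 M counts a library. DESeq2 1.42.0, other scaling, no filter, the replicate block and leaving out libraries were the alternatives.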

Additional observations from a re-analysis of the deposited data

Results flagged for a closer look

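The change with UBL5 siRNA differed between the lines for 28 members by edgeR's test of the interaction (adjusted p under 0.05 over all genes), given here as the log2 fold change in HepG2 minus that in Huh7. Among CENP genes the differences were CENPO (−0.872), CENPU (−0.792), CENPV (−0.745), CENPB (−0.662), CENPN (−0.589), CENPT (−0.585) and CENPQ (−0.525). Among mitotic kinesins they were KIF23 (−0.877), KIF18B (−0.87), KIF15 (−0.8), KIF22 (−0.526) and KIF2A (−0.442), and among kinases, cyclins, checkpoint and spindle genes CCNA2 (−0.795), CCNB1 (−0.696), TPX2 (−0.642), CDC20 (−0.55), CDCA8 (−0.507), BUB1 (−0.421) and BUB1B (−0.387). Among transport kinesins they were negative for KIF21B (−1.767), KIF3C (−1.293), KIF12 (−0.972), KIF16B (−0.442), KIF1C (−0.435) and KIF13A (−0.337), and positive for KIF5C (2.059), KIF1B (0.306) and KIF3B (0.306). The KIF21B, KIF12 and KIF5C values rest on fewer than 100 counts per library in HepG2. No group held enough libraries for a test of single libraries as outliers.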

How the results depend on the processing

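The count of lower members in HepG2 (39) stayed between 26 and 40 as single libraries were left out, and those called higher (1) between 0 and 2. The 40 includes KIF26B, which was not tested with all libraries. The higher count was 2 with DESeq2's size factors, 3 with DESeq2's Wald test, 2 with the replicate block, 5 in 1 fit over all 12 libraries and 3 without both replicates 3, an alternative chosen after seeing the data. In Huh7, 17 members were higher in place of 26 in 1 fit over all 12 libraries. The members with a change higher in HepG2 than in Huh7 (3) numbered 5 with the replicate block and 1 to 4 as single libraries were left out. The replicate block was fitted in both lines. It gave 2 higher and 41 lower members in HepG2, where the calls of CENPB, KIF20B, PLK1 and TTK were gained and that of KIF5C lost. In Huh7 it gave 27 higher and 32 lower, with CCNB1 (adjusted p = 0.0104), KIF20B, SPC25 and BUB3 gained by edgeR. The cause of these shifts was not tested.

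Over the alternatives, the 123 called values of single genes kept direction and side of the threshold in 1445 of 1615 cases, fell short of it in 170 and changed sign in 0. The 102 values that were not called passed the threshold in the same direction in 87 of 1452 cases and changed sign in 89. The values that changed sign follow on the log2 scale, as HepG2, Huh7 or difference (HepG2 minus Huh7). Without both replicates 3, these were CENPC HepG2 0.175, CENPX HepG2 −0.013, KIF20A HepG2 0.102, BUB1 Huh7 −0.019, KIF1A Huh7 0.042, KIF3C HepG2 0.003 and KIF7 HepG2 0.125. In 1 fit over all 12 libraries, these were CCNB2 Huh7 −0.02, CDC20 Huh7 −0.015 and KIF20A HepG2 0.003. With the replicate block, these were KIF11 HepG2 −0.007. With DESeq2's size factors, these were KIF20A HepG2 0.023, KIF4B Huh7 0.006 and KIF7 HepG2 0.013. With no filter on low counts, these were KIF20A HepG2 0.019, KIF4B Huh7 0.007 and KIF7 HepG2 0.008. With DESeq2's Wald test, these were KIF20A HepG2 0.023, KIF4B Huh7 0.007 and KIF7 HepG2 0.013. Without both HepG2 replicates 3, these were PRC1 difference 0.096. As single libraries were left out, the ranges were CDCA8 Huh7 −0.078 to 0.019, INCENP HepG2 −0.233 to 0.061, CENPC HepG2 −0.234 to 0.122, CENPC Huh7 −0.096 to 0.062, CENPC difference −0.173 to 0.195, CENPH Huh7 −0.01 to 0.158, CENPK difference −0.078 to 0.138, CENPW difference −0.052 to 0.123, CENPX HepG2 −0.124 to 0.16, CCNB2 Huh7 −0.014 to 0.046, CDC20 Huh7 −0.019 to 0.044, CDK1 Huh7 −0.109 to 0.027, KIF11 HepG2 −0.184 to 0.16, KIF14 difference −0.075 to 0.08, KIF18B HepG2 −0.273 to 0.008, KIF20A HepG2 −0.126 to 0.14, KIF22 HepG2 −0.24 to 0.029, KIF4B Huh7 −0.078 to 0.044, CENPE difference −0.059 to 0.121, CENPF HepG2 −0.153 to 0.087, CENPF Huh7 −0.01 to 0.054, CENPF difference −0.147 to 0.083, PRC1 HepG2 −0.035 to 0.602, PRC1 difference −0.638 to 0.021, BUB1 Huh7 −0.028 to 0.048, MAD2L1 difference −0.2 to 0.023, KIF13A HepG2 −0.005 to 0.071, KIF13B HepG2 −0.061 to 0.122, KIF13B Huh7 −0.137 to 0.029, KIF17 HepG2 −0.244 to 0.072, KIF1A Huh7 −0.171 to 0.049, KIF3C HepG2 −0.273 to 0.074, KIF5A Huh7 −0.075 to 0.036, KIF7 HepG2 −0.128 to 0.216 and KIF9 Huh7 −0.097 to 0.007. The cause was not tested.

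Depth limits CENPS, KIF5C, KIF12, KIF17, KIF21B and KIF26B in HepG2 and CENPS, KIF6 and KIF27 in Huh7, where a group held fewer than 40 counts in each library. Bulk RNA does not separate the share of dividing cells from the level in each cell, and all groups were transfected.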

Other observations

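SKA2, which shares its start region with PRR11 in head-to-head orientation and encodes a kinetochore protein, changed by −0.52 (SE 0.101, adjusted p = 0.00418) in HepG2 and −0.89 (SE 0.0694, adjusted p = 3.95e-07) in Huh7 in edgeR's test, less than PRR11 in both lines. FOXM1, the transcription factor of G2 and M phase genes, changed by −0.74 (SE 0.149, adjusted p = 0.00524) and −0.19 (SE 0.0577, adjusted p = 0.0124), and its partner MYBL2 by −1.49 (SE 0.208, adjusted p = 0.000882) and −0.58 (SE 0.083, adjusted p = 6.63e-05). LIN9, a subunit of the MuvB core, was at 0.15 in HepG2 (adjusted p = 0.438) and higher in Huh7 (0.90, SE 0.0583, adjusted p = 9.48e-08). These 4 genes were chosen after their values were seen.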
